A study of Mus musculus with 29 samples.

Results

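Control primary microglia were compared with control co-cultures of primary microglia and primary cortical neurons, using every library of both groups that carried the scramble control oligonucleotide. The comparison held 12 of the 29 libraries of the series, 4 of microglia (replicates 2, 3, 4 and 6) and 8 of co-culture (replicates 1, 2, 4, 5, 6, 8, 11 and 12). The members were all 48709 gene identifiers that the count tables of both experiments share, of which 16926 passed the filter on low counts and were tested.

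The study asks what an inhibitor of the microRNA miR-99b-5p does in mouse prefrontal cortex, in microglia and in co-cultures, and only the scramble arms of the culture experiments were used here. Both groups came from the CD1 mouse strain, and in both the microglia had received the scramble (sc-control) sequence, so no untreated microglia entered the comparison. The microglia were shaken off mixed glial cultures of P1 pups and kept in DMEM with 10% fetal bovine serum and 20% L929 conditioned medium. For the co-cultures, microglia were placed on cortical neurons taken from E17.5 embryos and kept in a neuron medium with 2% B27 supplement, and RNA was taken from the mixed cells. No group of neurons alone entered the comparison, and nothing in the labels says that replicates came from separate litters, so p-values measure the spread between these libraries. Culture medium, experiment and cell composition all change together between the groups and cannot be told apart, and for this reason differences under 4-fold were not called.

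Microglia are the resident macrophages of the brain. They depend on signalling through the receptor CSF1R, sample synapses and debris through complement, Fc, scavenger and lipid receptors, and carry a transcript set that neurons and astrocytes largely lack. When microglia are a small part of a mixed culture, a transcript that they alone make is diluted in the pooled RNA by a factor common to all such transcripts, as long as its level per microglial cell stays the same. In bulk RNA, fewer cells of a type and less RNA per cell cannot be told apart.

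Levels are given as CPM, the counts of a gene relative to the total counts of its library, scaled by TMM, a normalisation that sets the bulk of genes equal between libraries. The 4 microglia values of a gene are given in the order of replicates 2, 3, 4 and 6. A log2 fold change is microglia minus co-culture with its standard error, from edgeR's quasi-likelihood test with Benjamini-Hochberg adjustment over all 16926 genes, and a gene was called when the adjusted p was under 0.05 and the log2 fold change was beyond 2 in either direction. Counted reads ran from 21324156 to 33912795 per microglia library and from 24214958 to 37901110 per co-culture library.

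The marker genes separated the groups as labelled. All 8 microglial markers (among them Cx3cr1, P2ry12, Tmem119, Csf1r, Aif1, Itgam and Trem2) were called higher in microglia, with a summed level of 9044 to 9472 CPM in the microglia and 55.1 to 69.8 CPM in the co-cultures. All 6 neuronal markers were called lower in microglia, and their summed level was 138 to 150 CPM there against 6903 to 7162 CPM in the co-cultures. The 6 astrocyte markers summed to 282 to 331 CPM in microglia and 2109 to 2271 CPM in co-cultures, and 4 of them were called lower in microglia. The oligodendrocyte lineage markers summed to 251 to 298 CPM in microglia and 417 to 446 CPM in co-cultures, so both cultures held transcripts of glia other than microglia. Endothelial markers summed to 60.5 to 74.0 CPM in microglia and 1.82 to 3.23 CPM in co-cultures, most of it Flt1 at a mean of 65.7 CPM in microglia. Flt1 and Cdh5 were called higher in microglia. Cldn5 had 0 counts in the 4 microglia libraries and 12 in the co-cultures together, too few to compare. Fibroblast and mural markers summed to 33.6 to 53.9 CPM and 23.1 to 25.7 CPM. Of the 4 border macrophage markers, with sums of 286 to 330 CPM in microglia and 1.12 to 1.75 CPM in co-cultures, 2 were above 1 CPM in microglia. Siglech, a lectin of resting microglia, did not pass the filter.

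Across all genes, 2510 were called higher in microglia (14.8% of those tested) and 4136 lower (24.4%), and the median log2 fold change was -0.08. The levels of the groups did not overlap for any of the 2510 genes or for 4125 of the 4136, which follows largely from the limits of the call. The adjusted p of edgeR's quasi-likelihood test was under 0.05 for 15752 of all genes tested. Large differences were common in both directions, with 663 genes higher in microglia by a log2 fold change of 5 or more and 1233 lower by as much. In the plot of gene levels, the called genes lie on both sides of the line of equal level.

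**Figure D1:**
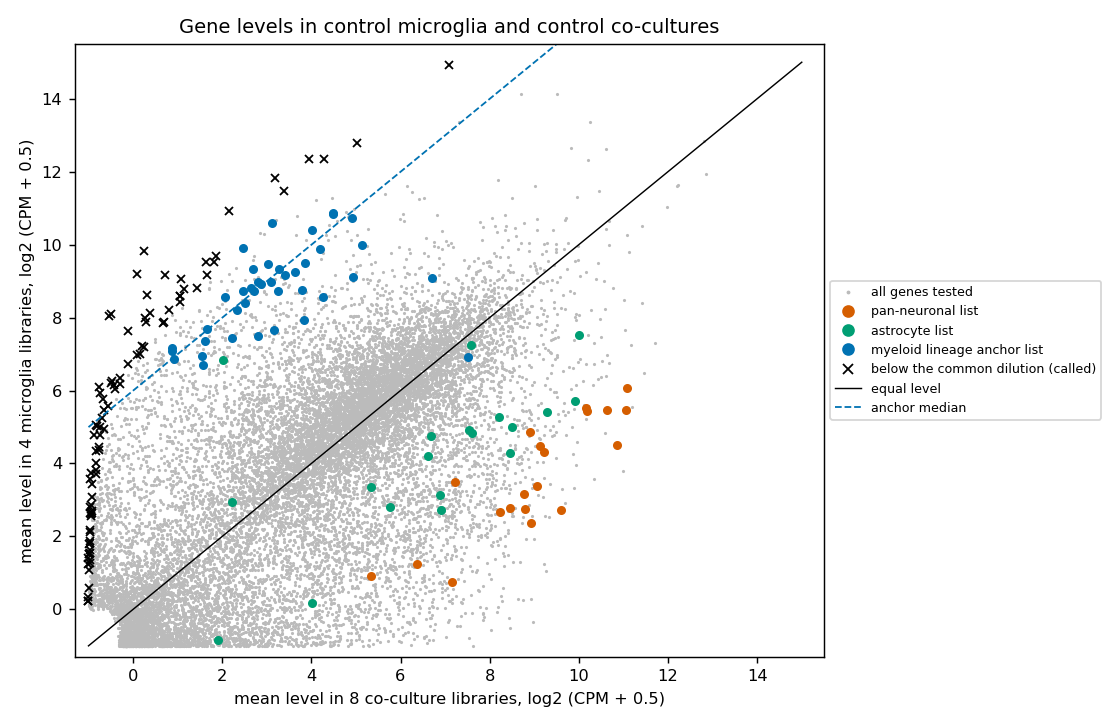
Mean level of each tested gene, as log2 of CPM + 0.5, in the 8 co-culture libraries (x axis) and the 4 microglia libraries (y axis), 1 point per gene. Blue points are the 40 anchor genes described next, which lie around the dashed line at their median log2 fold change of 6.00, except Sla and Coro1a; orange pan-neuronal genes all lie under the solid line of equal level, and crosses mark the 88 genes called below the common dilution.

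Abundant transcripts were ranked by level per kilobase of exon. The 15 genes with the highest such level in microglia, among those higher in microglia and no more than 1 (log2) under the dilution defined below, included Lyz2, Ctsd, Spp1, Ctsb, Tyrobp, C1qa, Ctss, Mpeg1, C1qb, Cd68, Ctsz, Fcer1g, C1qc and Selenop. Together the 15 took 8.02% to 8.20% of the counted reads in microglia and 0.0984% to 0.116% in co-cultures.

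Lyz2, the macrophage lysozyme, was at 32700, 30140, 30270 and 31500 CPM in microglia and at a lowest, median and highest level of 112, 134 and 159 CPM in co-cultures. All 4 Lyz2 values of the microglia lay above the co-culture range (log2 fold change 7.84 ± 0.06, adjusted p = 3.22e-38). Its near-identical copy Lyz1 can share reads with it. Ctsd, the lysosomal protease cathepsin D, measured 10310, 10280, 10900 and 10970 CPM in microglia, and its co-culture libraries had a lowest, median and highest level of 142, 158 and 171 CPM. The Ctsd ranges of the groups did not overlap (log2 fold change 6.06 ± 0.04, adjusted p = 1.94e-40). Exons of Ctsd overlap the model Gm49369 on the same strand over 34.4% of their length, so its level is uncertain. Ctsb, cathepsin B, stood at 17820, 17910, 17980 and 18390 CPM in the microglia libraries, against 404, 409 and 443 CPM as the lowest, median and highest co-culture values. Ctsb was higher in every microglia library than in any co-culture library (log2 fold change 5.45 ± 0.03, adjusted p = 7.59e-42). Per kilobase of exon, the mean microglia level was 23670 CPM for Lyz2, 4515 CPM for Ctsd and 2979 CPM for Ctsb. Apoe, the main lipid carrier of the brain, which astrocytes also make, was at 16750, 16950, 18690 and 19090 CPM in microglia and at a lowest, median and highest level of 694, 725 and 775 CPM in co-cultures. All 4 Apoe values of the microglia lay above the co-culture range (log2 fold change 4.62 ± 0.04, adjusted p = 8.19e-39). Its level per kilobase in microglia was 8360 CPM, under that of Lyz2 and above that of the others of the 15, from which its log2 fold change left it out.

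The 3 chains of C1q, the complement component that tags synapses and debris, had nearly the same ratio between the cultures. C1qa, the A chain, measured 2051, 1942, 2017 and 2052 CPM in microglia, and its co-culture libraries had a lowest, median and highest level of 26.6, 30.7 and 34.5 CPM. The C1qa ranges of the groups did not overlap (log2 fold change 6.04 ± 0.05, adjusted p = 1.05e-38). C1qb, the B chain, stood at 1667, 1523, 1583 and 1591 CPM in the microglia libraries, against 20.0, 24.01 and 26.6 CPM as the lowest, median and highest co-culture values. C1qb was higher in every microglia library than in any co-culture library (log2 fold change 6.08 ± 0.05, adjusted p = 3.35e-38). C1qc, the C chain, was at 1962, 1811, 1905 and 1894 CPM in microglia and at a lowest, median and highest level of 23.4, 26.8 and 30.6 CPM in co-cultures. All 4 C1qc values of the microglia lay above the co-culture range (log2 fold change 6.13 ± 0.05, adjusted p = 7.29e-39).

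The common dilution was measured on an anchor list of 40 genes of the blood lineage, such as Ptprc (CD45), the transcription factor gene Spi1 (PU.1), the NADPH oxidase subunit genes Cybb, Ncf1 and Ncf4 and the actin regulators Nckap1l, Was and Dock2. All 40 were tested and 39 were called higher in microglia. The median log2 fold change was 6.00 with quartiles of 5.40 and 6.39, that is a 63.8-fold lower level in co-culture, where the median over all genes was -0.08. Fcer1g, the Fc receptor gamma chain, measured 964, 924, 912 and 952 CPM in microglia, and its co-culture libraries had a lowest, median and highest level of 14.4, 17.7 and 20.0 CPM. The Fcer1g ranges of the groups did not overlap (log2 fold change 5.73 ± 0.04, adjusted p = 4.07e-39). Itgam, the integrin CD11b, stood at 294, 295, 298 and 293 CPM in the microglia libraries, against 4.07, 4.44 and 5.32 CPM as the lowest, median and highest co-culture values. Itgam was higher in every microglia library than in any co-culture library (log2 fold change 6.01 ± 0.04, adjusted p = 2.65e-40). Of the Itgam exons, 68.7% also lie in the overlapping model Gm49368 on the same strand, so its level is uncertain. Tyrobp, the adaptor of TREM2, was at 1586, 1517, 1507 and 1577 CPM in microglia and at a lowest, median and highest level of 6.74, 8.14 and 9.94 CPM in co-cultures. All 4 Tyrobp values of the microglia lay above the co-culture range (log2 fold change 7.55 ± 0.04, adjusted p = 5.42e-41). Tyrobp and Myo1f (log2 fold change 7.57), a myosin of leukocytes, had the highest ratios of the list.

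The mean log2 level of the 40 genes was 8.73 ± 0.021 (SD, n = 4) in microglia and 3.19 ± 0.09 (SD, n = 8) in co-cultures, and the groups did not overlap (difference 5.54, two-sided exact permutation test, p = 0.00404, the smallest that the 495 arrangements allow). The anchor was chosen as lineage genes of microglia and the co-cultures also hold neurons, so the design gave this separation in advance. The p-value therefore does not bear on the size of the dilution. On library size alone, the co-culture libraries held 1.86% ± 0.176 (SD, n = 8) of the anchor level of the microglia, with a lowest library of 1.66% (replicate 6) and a highest of 2.16% (replicate 1). These percentages are shares of RNA in a library and not of cells. Read the other way, the pan-neuronal list stood in microglia at 1.84% ± 0.0886 (SD, n = 4) of its co-culture level, the glutamatergic list at 0.375% ± 0.0415, the GABAergic list at 3.13% ± 0.490 and the astrocyte list at 10.4% ± 0.52. The astrocyte share was the highest of the 4 neural lists in each microglia library, from 9.84% to 11.0%.

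**Figure D2:**
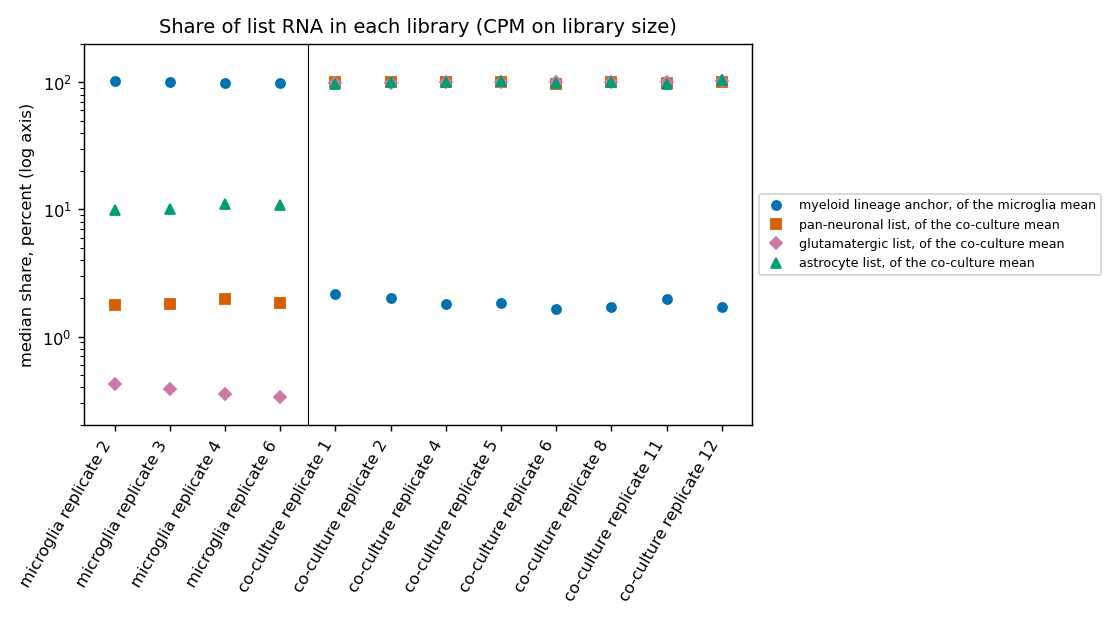
Median share over the genes of a list in each of the 12 libraries, in percent on a log axis, relative to the microglia mean for the anchor list (circles) and to the co-culture mean for the pan-neuronal (squares), glutamatergic (diamonds) and astrocyte (triangles) lists. The co-culture libraries hold 1.66% to 2.16% of the microglial anchor level, and the microglia libraries hold 9.84% to 11.0% of the astrocyte level, 1.76% to 1.97% of the pan-neuronal level and 0.332% to 0.427% of the glutamatergic level.

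Of the anchor genes, 2 lay far from the others. Sla, a Src-like adaptor of the lymphoid and myeloid lineages, measured 114, 121, 121 and 121 CPM in microglia, and its co-culture libraries had a lowest, median and highest level of 173, 181 and 188 CPM. The Sla ranges of the groups did not overlap (log2 fold change -0.60 ± 0.03, adjusted p = 2.88e-18, under the 4-fold limit). Coro1a, an actin-binding coronin, stood at 599.5, 502, 547 and 517 CPM in the microglia libraries, against 98.5, 105 and 108 CPM as the lowest, median and highest co-culture values. Coro1a was higher in every microglia library than in any co-culture library (log2 fold change 2.39 ± 0.04, adjusted p = 7.63e-32). Both were called above the dilution in the scaled fit described next, with deviations of -6.27 and -3.27.

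To find genes that left the common dilution, libraries were rescaled so that the mean log2 level of the anchor was equal in all 12, which puts the dilution at a log2 fold change of 5.66 (50.6-fold), and the same edgeR test was run again. This value is lower than the anchor median of 6.00, and the calls against the dilution use it. A positive deviation means a gene lower in co-culture than the dilution gives, and a negative one a gene higher there, whether from microglia or from other cells. The standard errors and adjusted p of deviations take the anchor scaling as known, so they leave out the spread among anchor genes. Tyrobp, itself an anchor gene, deviated by 1.90 ± 0.07 (not called), so deviations just past 2 are little larger than that of an anchor gene. More than 4-fold below the dilution lay 88 genes (0.52% of those tested), and more than 4-fold above it 93.1% of the genes. Of the 88, 5 had 0 counts in all 8 co-culture libraries, and against a floor of 3 counts over the group their deviations were at least 0.10 to 1.79, so that none of these bounds reached the limit of 2. A further 15 had 1 to 3 counts in the co-cultures together, and 68 had more. With TMM factors and 1 shift by the anchor median in place of the anchor scaling, 45 genes were below, all of them among the 88. With Sla and Coro1a left out of the anchor, 65 were below, also all among the 88. The count of 88 thus depends on which dilution is used.

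Among the 88, the 12 with the largest deviation at 10 CPM or more in microglia included Cd300lb, Mmp12, Clec7a, F630028O10Rik, Olfr111, Il1rl1, Asb10, Fabp4, Siglec1 and Dpep2, with deviations from 4.81 to 3.29, standard errors up to 0.45 and adjusted p up to 1.25e-16 in edgeR's quasi-likelihood test. Over all co-culture libraries together Olfr111 had 4 reads, Il1rl1 5, Asb10 11, Dpep2 16, F630028O10Rik 22 and Fabp4 25, so their deviations rest on few reads. Cd300lb had 45, Clec7a 139, Mmp12 167 and Siglec1 277. F630028O10Rik is the transcript that holds the microRNA gene Mir223, and exons of Dpep2 overlap other models over 55.1% of their length, so the level of Dpep2 is uncertain.

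Cd300lb, an activating receptor of the CD300 family, was at 272, 257, 262 and 259 CPM in microglia and at a lowest, median and highest level of 0.107, 0.146 and 0.311 CPM in co-cultures. All 4 Cd300lb values of the microglia lay above the co-culture range (log2 fold change 10.43 ± 0.06, adjusted p = 2.36e-41). For Cd300lb the deviation was 4.81 ± 0.14, called below the dilution. Mmp12, the macrophage elastase, measured 849, 949.7, 881 and 970.4 CPM in microglia, and its co-culture libraries had a lowest, median and highest level of 0.407, 0.693 and 1.00 CPM. The Mmp12 ranges of the groups did not overlap (log2 fold change 10.36 ± 0.06, adjusted p = 3.54e-41). Mmp12 deviated from the dilution by 4.72 ± 0.10 (called below the dilution). Cd300lb and Mmp12 had 3 to 31 reads in a co-culture library, against 5176 to 29000 in a microglia library. Clec7a, the beta-glucan receptor Dectin-1, stood at 553, 584, 579.7 and 607 CPM in the microglia libraries, against 0.481, 0.561 and 0.719 CPM as the lowest, median and highest co-culture values. Clec7a was higher in every microglia library than in any co-culture library (log2 fold change 9.97 ± 0.05, adjusted p = 1.5e-42). For Clec7a the deviation was 4.33 ± 0.10, called below the dilution.

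Siglec1, the sialoadhesin of macrophages, was at 589, 562, 615 and 525 CPM in microglia and at a lowest, median and highest level of 0.788, 1.14 and 1.49 CPM in co-cultures. All 4 Siglec1 values of the microglia lay above the co-culture range (log2 fold change 8.96 ± 0.06, adjusted p = 3.83e-40). Siglec1 deviated from the dilution by 3.31 ± 0.09 (called below the dilution). Fabp4, a fatty acid binding protein of fat cells and macrophages, measured 57.5, 59.6, 60.1 and 63.1 CPM in microglia, and its co-culture libraries had a lowest, median and highest level of 0.0388, 0.0731 and 0.174 CPM. The Fabp4 ranges of the groups did not overlap (log2 fold change 9.13 ± 0.09, adjusted p = 1.95e-36). For Fabp4 the deviation was 3.53 ± 0.20, called below the dilution. In the plot of single libraries, the co-culture values of the 10 genes drawn lie under the level that the dilution would leave.

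**Figure D3:**
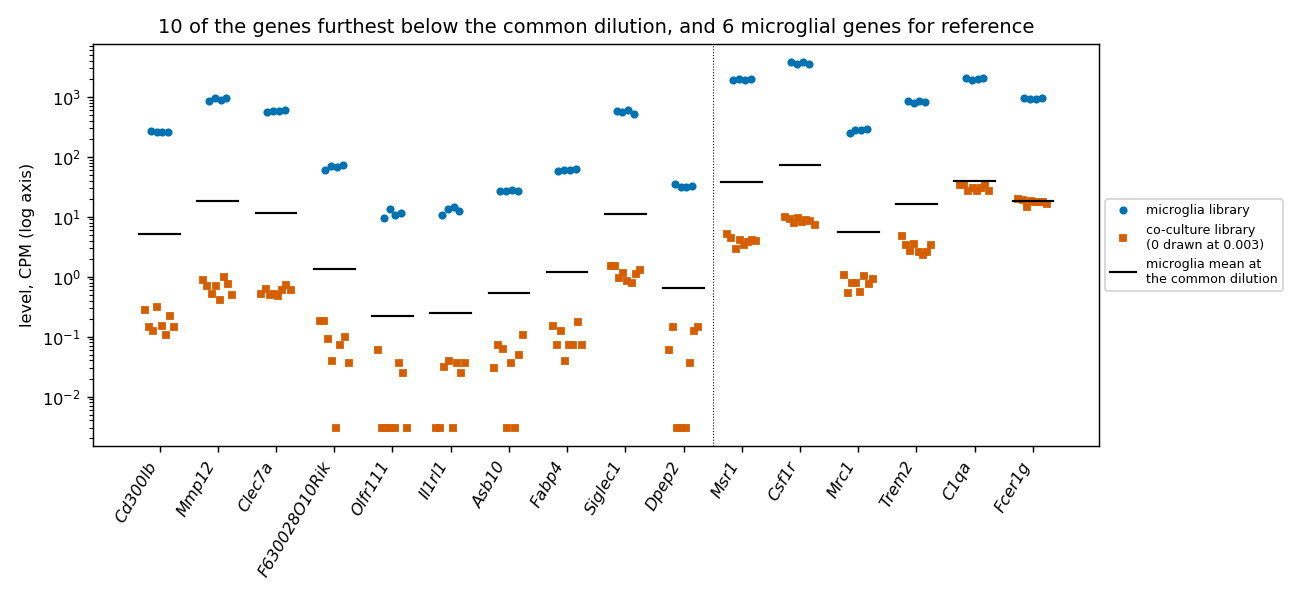
Level in CPM (log axis) of 10 of the 12 genes furthest below the common dilution (left of the dotted line) and of 6 other microglial genes, with 1 blue circle per microglia library, 1 orange square per co-culture library, and libraries with 0 counts drawn at 0.003. The black bar is the microglia mean divided by the dilution of the scaled fit, 50.6-fold. The co-culture squares lie under it for the 10 genes and for Msr1, Csf1r, Mrc1 and Trem2. They also lie under it for C1qa, which was not called (deviation 0.39), and around it for Fcer1g.

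Of the 88 genes, 21 belonged to at least 1 of the gene lists and 67 to none. The lists held 7 of the phagocytic and Fc receptors, 5 disease-associated genes, 4 homeostatic genes, 4 border macrophage genes, 3 complement genes, 2 receptors for neural ligands and 1 lysosomal gene, some of them in more than 1 list. The interferon-stimulated, cytokine, Toll-like receptor, MHC class II and proliferation lists had none. Over all genes tested the share below was 0.52%, so a list of their size may hold none at that share. Among the genes outside the lists, chosen after their values were seen, were Mpeg1 (the macrophage perforin, deviation 2.12), Lyz2 (2.18), Colec12 (a scavenger receptor, 2.47), Plau and Plaur (urokinase and its receptor, 2.72 and 2.32) and Ctse (cathepsin E, 3.25), of which Lyz2 and Mpeg1 fell short of the limit when the anchor was summarised by its median, stripped of Sla and Coro1a or replaced by 1 shift, and Plaur with 1 shift (1.97). The limit was passed narrowly by 9930111J21Rik1 (2.00) and Rab32 (2.01), while Gpr34 (1.98), Ccl6 (1.95) and Folr2 (1.95) stayed just under it.

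The homeostatic list, genes of resting microglia, had 22 of 24 members tested, of which 4 lay below the dilution (among them Csf1r, Trem2 and P2ry13), 5 above it and 13 were not called. P2ry13 fell short of the limit with 1 shift by the anchor median (1.98). The median deviation was 0.97, where the median over all genes was -5.73, with 0.52% below and 93.1% above. Csf1r, the receptor for CSF1 and interleukin 34, stood at 3761, 3513, 3776 and 3590 CPM in the microglia libraries, against 7.27, 8.56 and 9.88 CPM as the lowest, median and highest co-culture values. Csf1r was higher in every microglia library than in any co-culture library (log2 fold change 8.73 ± 0.04, adjusted p = 1.5e-42). Csf1r deviated from the dilution by 3.07 ± 0.07 (called below the dilution). Exons of Csf1r overlap Hmgxb3 on the opposite strand over 15.1% of their length. Trem2, a lipid receptor, was at 842, 794, 839 and 813 CPM in microglia and at a lowest, median and highest level of 2.29, 3.01 and 4.71 CPM in co-cultures. All 4 Trem2 values of the microglia lay above the co-culture range (log2 fold change 8.04 ± 0.06, adjusted p = 5.84e-39). For Trem2 the deviation was 2.39 ± 0.07, called below the dilution. Cx3cr1, the fractalkine receptor, measured 1614, 1636, 1662 and 1637 CPM in microglia, and its co-culture libraries had a lowest, median and highest level of 6.77, 8.61 and 10.8 CPM. The Cx3cr1 ranges of the groups did not overlap (log2 fold change 7.54 ± 0.06, adjusted p = 4.15e-39). Cx3cr1 deviated from the dilution by 1.89 ± 0.07 (not called).

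P2ry12, the ADP receptor of resting microglia, stood at 71.7, 77.0, 76.0 and 82.8 CPM in the microglia libraries, against 0.369, 0.583 and 0.759 CPM as the lowest, median and highest co-culture values. P2ry12 was higher in every microglia library than in any co-culture library (log2 fold change 7.08 ± 0.07, adjusted p = 7.93e-36). For P2ry12 the deviation was 1.43 ± 0.13, not called. Tmem119, a membrane protein of brain microglia, was at 16.6, 16.4, 19.7 and 16.5 CPM in microglia and at a lowest, median and highest level of 0.246, 0.379 and 0.777 CPM in co-cultures. All 4 Tmem119 values of the microglia lay above the co-culture range (log2 fold change 5.35 ± 0.12, adjusted p = 7.42e-27). Tmem119 deviated from the dilution by -0.29 ± 0.17 (not called). Both were low for microglial markers, with a mean of 30.2 and 7.46 CPM per kilobase against 634 for Csf1r and 364 for Cx3cr1. The members above the dilution were Adgrg1, Sall1, Golm1, Slc2a5 and Entpd1. Adgrg1, an adhesion receptor also found on neural progenitors, measured 35.7, 36.7, 42.5 and 41.2 CPM in microglia, and its co-culture libraries had a lowest, median and highest level of 120.4, 128 and 135 CPM. The Adgrg1 ranges of the groups did not overlap (log2 fold change -1.70 ± 0.04, adjusted p = 9.95e-26, under the 4-fold limit). Sall1, a transcription factor of microglia and of neural precursors, stood at 36.6, 42.2, 46.3 and 44.8 CPM in the microglia libraries, against 27.1, 27.4 and 28.8 CPM as the lowest, median and highest co-culture values. Sall1 was higher in every microglia library than in any co-culture library (log2 fold change 0.63 ± 0.04, adjusted p = 4.55e-14, under the 4-fold limit). For such genes microglial and neural transcripts cannot be told apart in these values.

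The disease-associated list, genes raised in microglia around plaques or dying cells, had 23 of 24 members tested, with 5 below, 5 above and 13 not called (median deviation -0.22). Of all genes tested 0.52% were below and 93.1% above. Those below were Clec7a, Gpnmb, Itgax, Spp1 and Lgals3, of which Lgals3 fell short with 1 shift (1.92). Spp1, osteopontin, was at 4970, 5224, 5335 and 5496 CPM in microglia and at a lowest, median and highest level of 14.3, 17.8 and 24.02 CPM in co-cultures. All 4 Spp1 values of the microglia lay above the co-culture range (log2 fold change 8.11 ± 0.07, adjusted p = 1.8e-37). For Spp1 the deviation was 2.46 ± 0.06, called below the dilution. Exons of Spp1 overlap the model Gm42793 on the same strand over 18.8% of their length. Gpnmb, a lysosomal glycoprotein, had a mean of 5173 CPM in microglia and 14.8 CPM in co-cultures (deviation 2.80 ± 0.07). Members near the dilution included Lpl, a lipase (-0.17), Igf1, a growth factor (-0.08), Ctsb (-0.22), Ctsd (0.40) and Cst7, a protease inhibitor (0.72), so the list did not move as a block. Those above were Fabp5, Ank, Csf1, Timp2 and Ctsl.

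Border and peripheral macrophage genes, 16 of 20 tested, split into 4 below, 4 above and 8 not called, with a median deviation of 0.27. Beside these stand 0.52% below and 93.1% above among all genes tested. Msr1, scavenger receptor A, measured 1924, 1957, 1921 and 1995 CPM in microglia, and its co-culture libraries had a lowest, median and highest level of 2.95, 4.03 and 5.17 CPM. The Msr1 ranges of the groups did not overlap (log2 fold change 8.93 ± 0.05, adjusted p = 1.09e-41). Msr1 deviated from the dilution by 3.28 ± 0.07 (called below the dilution). Mrc1, the mannose receptor CD206, stood at 249.9, 285, 281 and 291 CPM in the microglia libraries, against 0.542, 0.788 and 1.06 CPM as the lowest, median and highest co-culture values. Mrc1 was higher in every microglia library than in any co-culture library (log2 fold change 8.40 ± 0.06, adjusted p = 3.18e-39). For Mrc1 the deviation was 2.76 ± 0.10, called below the dilution. Stab1, another scavenger receptor, deviated by 2.49 ± 0.07 and the chemokine receptor gene Ccr1 by 2.77 ± 0.29. Pf4 (1.00), Folr2 (1.95), Cd36 (0.01), Ccr2 (0.45) and Ms4a7 (-0.78) were not called. Ly6c2, Chil3, Arg1 and Lyve1 did not pass the filter.

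Phagocytic and Fc receptors were all tested, 27 of 27, with 7 below (Siglec1, Msr1, Stab1, Timd4, Fcgr3, Clec4d and Cd300a), 3 above (Tyro3, Scarb1 and Siglece) and 17 not called, and a median deviation of 0.25. With 1 shift by the anchor median 3 were below, since Timd4 (1.92), Fcgr3 (1.959), Clec4d (1.76) and Cd300a (1.73) fell short of the limit, and Clec4d and Cd300a also did so with the anchor median or without Sla and Coro1a (5 below in each). The Fc receptor genes Fcgr1 (0.83), Fcgr2b (1.75) and Fcgr4 (-0.59) were not called, and reads can be shared within this family and within the Clec4a and Cd300 families. All 21 Toll-like receptor and inflammasome genes were tested, and of these none was below, 2 were above (Tlr1 and Tlr3) and 19 were not called, with a median deviation of -0.03. For both lists, the shares of all genes tested were 0.52% below and 93.1% above. The RNA sensor gene Tlr7 (1.56), the lipopolysaccharide co-receptor gene Cd14 (1.42), Tlr2 (0.18), the inflammasome genes Nlrp3 (0.90) and Pycard (-1.02) and Casp1 (-1.19) were among the 19.

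Complement genes, 18 of 20 tested, had 3 below, 7 above and 8 not called (median deviation -0.63). Among all genes tested, 0.52% lay below the dilution and 93.1% above it. C1qa, C1qb and C1qc deviated by 0.39, 0.43 and 0.47, and the anaphylatoxin receptor genes C3ar1 and C5ar1 by 0.32 and 1.81. Vsig4 and Itgax were among those below. C3, the central complement component, was at 217, 199, 201 and 197 CPM in microglia and at a lowest, median and highest level of 38.3, 45.2 and 58.2 CPM in co-cultures. All 4 C3 values of the microglia lay above the co-culture range (log2 fold change 2.08 ± 0.07, adjusted p = 5.89e-23). C3 deviated from the dilution by -3.57 ± 0.08 (called above the dilution). Its log2 fold change fell short of 2 with upper-quartile factors, library size alone or at least 10 counts in every library, and did not pass a test against the 4-fold limit itself (glmTreat). C4b, complement component 4, whose near-identical neighbour C4a can share reads with it, measured 0.787, 1.04, 0.657 and 0.937 CPM in microglia, and its co-culture libraries had a lowest, median and highest level of 19.3, 22.2 and 22.9 CPM. The C4b ranges of the groups did not overlap (log2 fold change -4.65 ± 0.10, adjusted p = 2.53e-27). C4b, C1s1 (log2 fold change -4.53), Serping1 (-2.54) and Cd55 (-2.73) were the 4 members called lower in microglia outright.

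**Figure D4:**
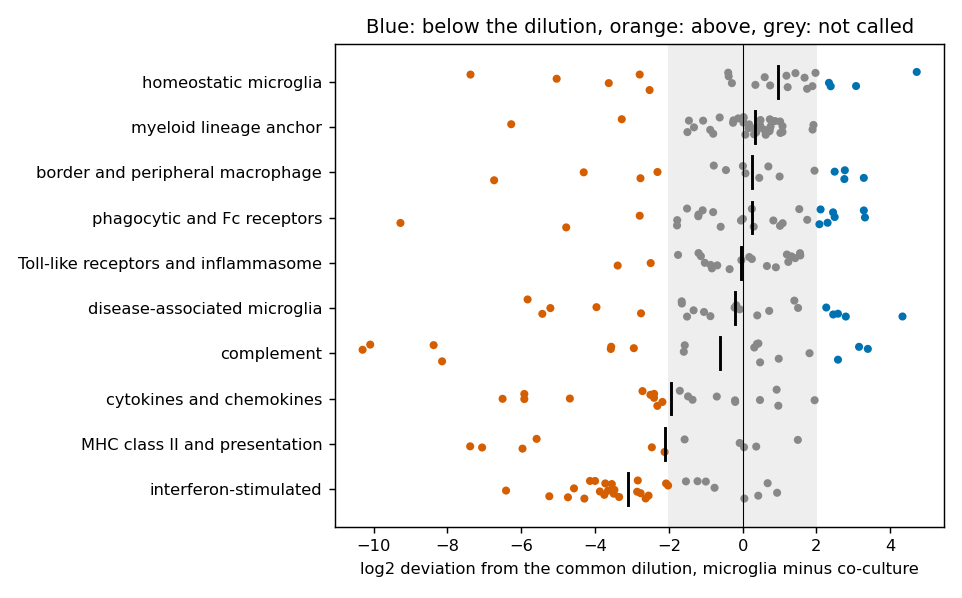
Log2 deviation from the common dilution (x axis) of the tested members of the 10 myeloid and immune lists, 1 point per gene, with the list median as a black bar and the range within 4-fold shaded. Medians run from 0.97 for the homeostatic list to -3.10 for the interferon-stimulated list; blue points were called below the dilution and orange points above it.

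Interferon-stimulated genes had the lowest median deviation of the myeloid and immune lists. All 30 were tested and 20 were called higher in microglia, and in the scaled fit 22 lay above, none below and 8 were not called, with a median deviation of -3.10. Over all genes tested, 93.1% lay above the dilution, with a median deviation of -5.73, so the share above was lower in this list (22 of 30) than over all genes. Cmpk2, a mitochondrial nucleotide kinase induced by interferon, stood at 23.5, 22.1, 16.1 and 14.4 CPM in the microglia libraries, against 29.2, 32.3 and 33.4 CPM as the lowest, median and highest co-culture values. Cmpk2 was lower in every microglia library than in any co-culture library (log2 fold change -0.76 ± 0.08, adjusted p = 3.63e-10, under the 4-fold limit). Zbp1, a sensor of Z-form nucleic acids, was at 14.3, 15.2, 11.0 and 10.9 CPM in microglia and at a lowest, median and highest level of 0.184, 0.486 and 0.555 CPM in co-cultures. All 4 Zbp1 values of the microglia lay above the co-culture range (log2 fold change 4.87 ± 0.14, adjusted p = 2.04e-24). For Zbp1 the deviation was -0.76 ± 0.17, not called. Cxcl10, a chemokine induced by interferon, measured 7.35, 9.27, 7.46 and 8.43 CPM in microglia, and its co-culture libraries had a lowest, median and highest level of 3.26, 4.35 and 5.02 CPM. The Cxcl10 ranges of the groups did not overlap (log2 fold change 0.92 ± 0.10, adjusted p = 2.98e-10, under the 4-fold limit). Between these lay Ifit2 (log2 fold change 1.66), Isg15 (2.17) and Irf7 (4.42), while Oas1a (5.69), Oas2 (6.06) and Ifi27l2a (6.32) were near the anchor median. Oas1a and the Ifit3 pair have close copies with which reads can be shared.

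Cytokines and chemokines, 20 of 22 tested, had 10 members above, none below and 10 not called, with a median deviation of -1.94. The share above was thus lower than the 93.1% of all genes tested. Il1b, interleukin 1 beta, stood at 14.2, 14.5, 11.4 and 13.9 CPM in the microglia libraries, against 1.14, 1.40 and 1.66 CPM as the lowest, median and highest co-culture values. Il1b was higher in every microglia library than in any co-culture library (log2 fold change 3.25 ± 0.09, adjusted p = 1.76e-24). Tnf, tumour necrosis factor, was at 45.2, 39.8, 43.1 and 39.1 CPM in microglia and at a lowest, median and highest level of 4.40, 5.30 and 6.33 CPM in co-cultures. All 4 Tnf values of the microglia lay above the co-culture range (log2 fold change 2.94 ± 0.06, adjusted p = 5.73e-28). Tgfb1, transforming growth factor beta 1, measured 312, 299.5, 331 and 304 CPM in microglia, and its co-culture libraries had a lowest, median and highest level of 2.62, 3.08 and 3.73 CPM. The Tgfb1 ranges of the groups did not overlap (log2 fold change 6.62 ± 0.05, adjusted p = 3.19e-39). For Tgfb1 the deviation was 0.97 ± 0.08, not called. The chemokine genes Ccl4 (-0.70), Ccl9 (-0.20) and Cxcl16 (0.92) and the receptor antagonist gene Il1rn (-0.20) were also not called against the dilution. Il18, Il10 and Cxcl1 did not pass the 4-fold limit between the cultures, with log2 fold changes of -0.26, -0.89 and -0.28. Il6 and Il12b did not pass the filter.

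MHC class II genes differed in level. H2-Aa, a class II alpha chain, stood at 0.105, 0.0835, 0.232 and 0.100 CPM in the microglia libraries, against 0.233, 0.394 and 0.521 CPM as the lowest, median and highest co-culture values. H2-Aa was lower in every microglia library than in any co-culture library (log2 fold change -1.53 ± 0.37, adjusted p = 0.000331, under the 4-fold limit). H2-Ab1 had means of 0.344 and 0.436 CPM and Ciita, the class II activator, 0.263 and 0.971 CPM in microglia and co-cultures. Levels of over 10 CPM in microglia were measured for H2-DMa, a peptide loading chain (12.0 and 11.5 CPM), its partner H2-DMb1 (13.1 and 0.197 CPM) and the invariant chain gene Cd74 (13.6 and 1.15 CPM). Of the 11 tested of 12, 6 were above the dilution, none below and 5 not called, with a median deviation of -2.11. This share above was lower than the 93.1% of all genes tested. The presentation genes Ctss, Cd86 (0.04) and Ifi30 (-0.08) were among those not called.

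Proliferation genes were mostly higher in microglia. Of 25 tested, 22 were called higher in microglia and 3 were not called, where 14.8% of all genes were called higher, with a median log2 fold change of 2.86. Mki67, the Ki-67 protein of dividing cells, was at 474, 541, 507 and 535 CPM in microglia and at a lowest, median and highest level of 41.2, 44.3 and 47.1 CPM in co-cultures. All 4 Mki67 values of the microglia lay above the co-culture range (log2 fold change 3.54 ± 0.03, adjusted p = 7.68e-37). In the scaled fit 24 of the 25 lay above the dilution, near the 93.1% of all genes. Lysosomal genes, 24 of 24 tested and 23 called higher in microglia with a median log2 fold change of 5.19, ran from glycosidase and lipase genes near the dilution (Gusb, Lipa, Man2b1 and Hexa, deviations of 0.64, 0.52, 0.08 and -0.49) to Psap and Mcoln1 (-3.54 and -4.88), a saposin precursor and a lysosomal channel. Atp6v0d2, a proton pump subunit, was the 1 member below (2.22), and fell short of the limit with 1 shift (1.86) or without Sla and Coro1a.

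On the neural side, the whole pan-neuronal list, 20 of 20 tested, was called lower in microglia, with a median log2 fold change of -5.53. Of all genes tested, 24.4% were called lower and 14.8% higher, shares to set beside each of the cell type lists that follow. The 15 genes with the highest co-culture level per kilobase among those lower by 5 or more were Tubb3, Gpm6a, Stmn2, Mapt, Crmp1, Cnih2, Ndrg4, Vsnl1, Dpysl5, Cplx2, Rab6b, Kif5c, Nell2, Camkv and Olfm1, among them genes of the neuronal cytoskeleton, growth cone and synapse. They took 1.69% to 1.75% of co-culture reads and 0.0246% to 0.0271% of microglia reads. Tubb3, neuronal beta tubulin, measured 44.9, 41.2, 46.6 and 43.3 CPM in microglia, and its co-culture libraries had a lowest, median and highest level of 1456, 1597 and 1668 CPM. The Tubb3 ranges of the groups did not overlap (log2 fold change -5.17 ± 0.04, adjusted p = 7.35e-38). Stmn2, a growth cone stathmin, stood at 21.2, 23.1, 22.4 and 23.1 CPM in the microglia libraries, against 1819, 1844 and 1892 CPM as the lowest, median and highest co-culture values. Stmn2 was lower in every microglia library than in any co-culture library (log2 fold change -6.36 ± 0.04, adjusted p = 4.62e-41). Gpm6a, a neuronal membrane glycoprotein, was at 43.4, 44.5, 48.8 and 50.2 CPM in microglia and at a lowest, median and highest level of 2191, 2315 and 2476 CPM in co-cultures. All 4 Gpm6a values of the microglia lay below the co-culture range (log2 fold change -5.63 ± 0.05, adjusted p = 4.47e-38). A microglia library held 404 to 1500 reads of each of these neuronal genes.

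Transcripts of glutamatergic neurons were rarer still in microglia. The glutamatergic cortical list had 19 of 20 tested members called lower, with a median log2 fold change of -7.94. Neurod6, a transcription factor of cortical projection neurons, had 0 counts in the 4 microglia libraries and 192, 197 and 206 CPM as the lowest, median and highest co-culture values, which is at least 6509-fold higher against a floor of 3 counts over the microglia group. Slc17a6, the vesicular glutamate transporter VGLUT2, had 1 count in microglia in all and 72.7, 73.6 and 80.6 CPM as the lowest, median and highest co-culture values, a ratio of 7365 with a 95% counting interval of 1322 to 290900. Intervals and floors cover counting error only. Camk2a, a postsynaptic kinase, measured 2.26, 1.08, 1.47 and 1.47 CPM in microglia, and its co-culture libraries had a lowest, median and highest level of 582, 619.6 and 634 CPM. The Camk2a ranges of the groups did not overlap (log2 fold change -8.65 ± 0.07, adjusted p = 6.81e-39). Camkv, a kinase-like protein of synapses, stood at 0.630, 0.292, 0.0773 and 0.167 CPM in the microglia libraries, against 457, 509 and 522 CPM as the lowest, median and highest co-culture values. Camkv was lower in every microglia library than in any co-culture library (log2 fold change -10.88 ± 0.10, adjusted p = 3.15e-37). Vsnl1, the calcium sensor visinin-like 1, was at 0.315, 0.125, 0.193 and 0.167 CPM in microglia and at a lowest, median and highest level of 339, 353 and 371 CPM in co-cultures. All 4 Vsnl1 values of the microglia lay below the co-culture range (log2 fold change -10.81 ± 0.08, adjusted p = 3.23e-39).

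GABAergic genes, 16 of 16 tested and 14 called lower, had a median log2 fold change of -4.75 and a wide range. Sst, somatostatin, had 1 count in microglia in all and 39.0, 40.5 and 44.3 CPM as the lowest, median and highest co-culture values, a ratio of 4072 with a counting interval of 731 to 160800. Calb2 and Lhx6 had log2 fold changes of -9.33 and -9.21, and Gad1, Dlx1, Dlx2 and Dlx5, a GABA-synthesising enzyme and transcription factors of interneuron development, -5.30, -3.91, -2.20 and -2.83. Presynaptic genes (20 of 20 called lower, median -5.85) and postsynaptic genes (18 of 20 called lower, median -5.86) were close to the pan-neuronal list. Among them the vesicle release genes Cplx1 and Rims1 had log2 fold changes of -7.61 and -6.80, and the scaffold and receptor genes Dlg2 and Grin2b -9.45 and -8.26. The postsynaptic members not called were Homer1 (-1.64) and Gphn (-1.57).

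**Figure D5:**
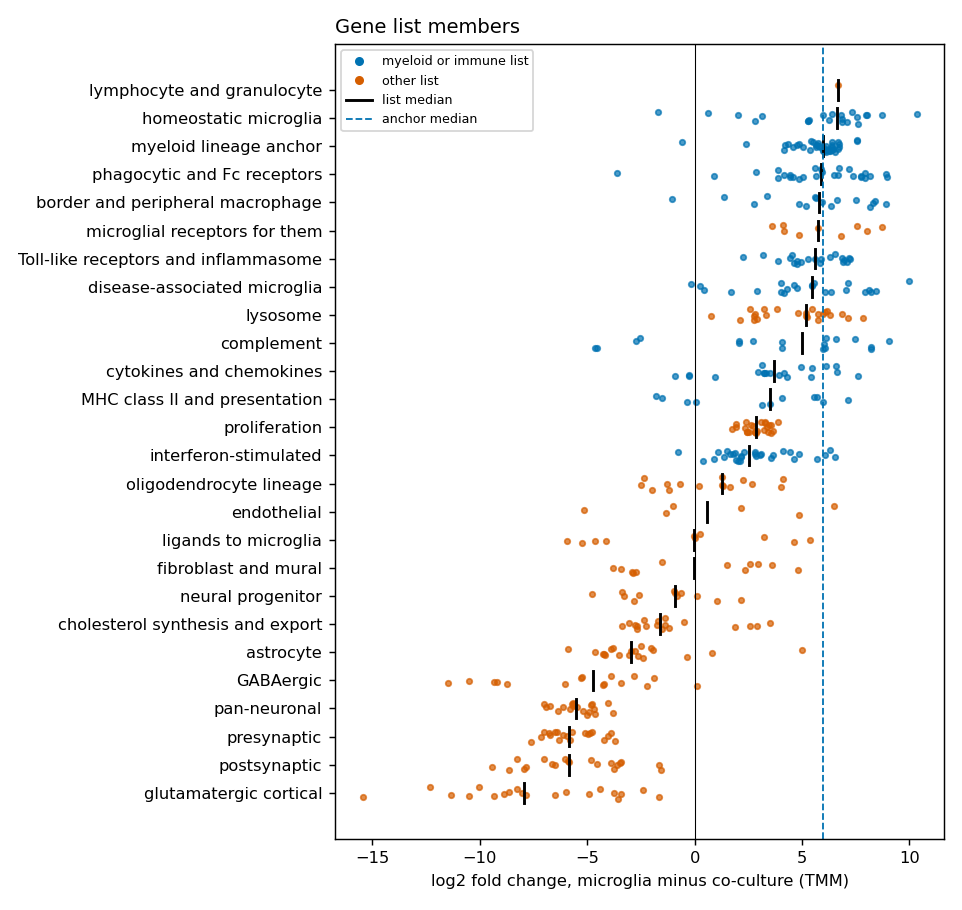
Log2 fold change, microglia minus co-culture, of the tested members of the 26 gene lists, 1 point per gene, with lists in the order of their medians (black bars) and the anchor median of 6.00 as a dashed line. Medians run from -7.94 for the glutamatergic list to 6.61 for the homeostatic list, and the lymphocyte and granulocyte list above it has 1 tested gene.

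Astrocyte genes were less depleted in microglia than neuronal genes by their medians, with 15 of 19 tested called lower in microglia, 1 higher and 3 not called, and a median log2 fold change of -2.96. Slc1a3, the glutamate transporter GLAST, measured 48.9, 48.8, 52.7 and 56.8 CPM in microglia, and its co-culture libraries had a lowest, median and highest level of 936, 957 and 999 CPM. The Slc1a3 ranges of the groups did not overlap (log2 fold change -4.21 ± 0.04, adjusted p = 1.36e-36). Aqp4, the water channel of astrocytes, stood at 22.6, 30.5, 28.3 and 29.9 CPM in the microglia libraries, against 186, 192 and 210.2 CPM as the lowest, median and highest co-culture values. Aqp4 was lower in every microglia library than in any co-culture library (log2 fold change -2.79 ± 0.05, adjusted p = 2.12e-29). Gfap, the astrocyte intermediate filament, was at 141, 141, 155 and 163 CPM in microglia and at a lowest, median and highest level of 183, 192 and 195 CPM in co-cultures. All 4 Gfap values of the microglia lay below the co-culture range (log2 fold change -0.34 ± 0.03, adjusted p = 7.57e-11, under the 4-fold limit). The astrocyte genes thus did not share 1 ratio. Id3, an inhibitor of differentiation that other cell types also express, measured 122, 107, 113 and 114 CPM in microglia, and its co-culture libraries had a lowest, median and highest level of 2.96, 3.45 and 4.43 CPM. The Id3 ranges of the groups did not overlap (log2 fold change 5.02 ± 0.05, adjusted p = 3.56e-36). Id3 was the 1 member called higher in microglia.

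Oligodendrocyte lineage genes went in both directions, with 15 of 16 tested, 4 called higher in microglia, 3 lower and 8 not called, and a median log2 fold change of 1.28. Among all genes tested 14.8% were called higher and 24.4% lower. The progenitor genes Pdgfra and Gpr17 were called lower in microglia (-2.51 and -2.34), as was the myelin gene Mog, which lay at the limit. Mbp, myelin basic protein, stood at 117, 107, 121 and 116 CPM in the microglia libraries, against 16.7, 17.2 and 20.7 CPM as the lowest, median and highest co-culture values. Mbp was higher in every microglia library than in any co-culture library (log2 fold change 2.69 ± 0.04, adjusted p = 7.45e-31). Mag, myelin-associated glycoprotein, was at 12.5, 10.7, 12.9 and 10.9 CPM in microglia and at a lowest, median and highest level of 0.395, 0.634 and 1.13 CPM in co-cultures. All 4 Mag values of the microglia lay above the co-culture range (log2 fold change 4.13 ± 0.12, adjusted p = 1.52e-23). Cldn11, a myelin claudin, had a log2 fold change of 4.04 and Enpp6, an enzyme of new oligodendrocytes, 2.23. Olig1, Olig2 and Sox10, transcription factors of the lineage, were not called (-1.27, -1.21 and -0.70). Neural progenitor genes, all 12 tested, had 5 called lower (Eomes, Pax6, Fabp7, Prom1 and Hes5), 1 higher (Vim, 2.18, under the limit on library size alone) and a median of -0.92.

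Other cell types were sparse. Of 12 endothelial genes 6 were tested, and Flt1 (log2 fold change 6.48), Cdh5 (4.86) and Kdr (2.15, under the limit on library size alone) were called higher in microglia while Ocln was called lower (-5.14). Fibroblast and mural genes, 12 of 13 tested, split into 5 higher (Acta2, Postn, Col1a1, Tagln and Col1a2) and 5 lower (Dcn, Rgs5, Lum, Vtn and Fbln1), and the collagen gene Col1a1 had a mean of 26.3 CPM in microglia against 3.42 CPM in co-cultures. Of 12 lymphocyte and granulocyte genes only S100a8 was tested, at a mean of 2.16 CPM in microglia. The part of these cells in the other results was not tested.

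Cholesterol synthesis and export genes, all 18 tested, had 7 called lower in microglia, 3 higher and 8 not called, with a median log2 fold change of -1.60. Over all genes 24.4% were called lower and 14.8% higher, with a median of -0.08. Hmgcs1, the HMG-CoA synthase at the entry of the pathway, measured 191, 206, 199 and 206 CPM in microglia, and its co-culture libraries had a lowest, median and highest level of 2008, 2103 and 2230 CPM. The Hmgcs1 ranges of the groups did not overlap (log2 fold change -3.39 ± 0.04, adjusted p = 1.68e-35). Fdft1 and Sqle, enzymes of the pathway, had log2 fold changes of -3.07 and -2.77. The 3 called higher in microglia, Nr1h3, Mylip and Abcg1 (3.52, 2.89 and 2.56), act in sterol sensing and export.

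Signals from neural cells to microglia were followed as ligands and receptors. Of the 10 ligand genes, all tested, 4 were called lower in microglia, 3 higher and 3 not called, and of the 10 receptor genes 9 were tested and all 9 called higher in microglia, with a median log2 fold change of 5.74. The shares of all genes tested were 24.4% lower and 14.8% higher. Cx3cl1, fractalkine, the ligand of CX3CR1, stood at 4.09, 3.88, 4.25 and 4.55 CPM in the microglia libraries, against 255, 258 and 269 CPM as the lowest, median and highest co-culture values. Cx3cl1 was lower in every microglia library than in any co-culture library (log2 fold change -5.95 ± 0.05, adjusted p = 1.53e-38). Cd200, a neuronal surface ligand, was at 6.03, 6.64, 7.66 and 7.03 CPM in microglia and at a lowest, median and highest level of 251, 262 and 271 CPM in co-cultures. All 4 Cd200 values of the microglia lay below the co-culture range (log2 fold change -5.25 ± 0.05, adjusted p = 1.88e-37). Cd200r1, its receptor, measured 49.9, 51.6, 49.9 and 57.4 CPM in microglia, and its co-culture libraries had a lowest, median and highest level of 0.296, 0.478 and 0.621 CPM. The Cd200r1 ranges of the groups did not overlap (log2 fold change 6.83 ± 0.08, adjusted p = 1.18e-34).

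The ligands of CSF1R differed from each other. Il34, interleukin 34, stood at 0.315, 0.125, 0.116 and 0.167 CPM in the microglia libraries, against 2.83, 3.04 and 3.47 CPM as the lowest, median and highest co-culture values. Il34 was lower in every microglia library than in any co-culture library (log2 fold change -4.13 ± 0.20, adjusted p = 4.27e-18). Csf1, colony stimulating factor 1, was at 23.9, 24.7, 26.4 and 27.1 CPM in microglia and at a lowest, median and highest level of 19.6, 22.1 and 23.2 CPM in co-cultures. All 4 Csf1 values of the microglia lay above the co-culture range (log2 fold change 0.23 ± 0.05, adjusted p = 4.02e-05, under the 4-fold limit). With scaling by library size alone its direction turned, at a log2 fold change for Csf1 of -0.018 (edgeR quasi-likelihood test, adjusted p = 0.714). Tgfb2, transforming growth factor beta 2, measured 14.8, 15.9, 19.2 and 20.3 CPM in microglia, and its co-culture libraries had a lowest, median and highest level of 16.6, 17.6 and 18.8 CPM. Tgfb2 levels overlapped between the groups (log2 fold change 0.01 ± 0.06, adjusted p = 0.900, not called). Tgfbr2, a receptor of this family, stood at 516, 519, 558 and 526.5 CPM in the microglia libraries, against 9.46, 9.82 and 10.5 CPM as the lowest, median and highest co-culture values. Tgfbr2 was higher in every microglia library than in any co-culture library (log2 fold change 5.74 ± 0.03, adjusted p = 2.3e-41). For Tgfbr2 the deviation was 0.09 ± 0.07, not called. The other receptor gene, Tgfbr1, had a deviation of -1.54.

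Cd47, a signal that blocks engulfment, was at 193, 190.4, 182 and 186 CPM in microglia and at a lowest, median and highest level of 184, 189 and 199 CPM in co-cultures. Cd47 levels overlapped between the groups (log2 fold change -0.02 ± 0.03, adjusted p = 0.587, not called). Sirpa, its receptor, which neurons also express, measured 3566, 3461, 3562 and 3481 CPM in microglia, and its co-culture libraries had a lowest, median and highest level of 277, 289.6 and 301 CPM. The Sirpa ranges of the groups did not overlap (log2 fold change 3.60 ± 0.03, adjusted p = 2.41e-39). For Sirpa the deviation was -2.06 ± 0.07, called above the dilution. Gas6, a bridging ligand of the TAM receptors, stood at 849, 866, 898 and 874 CPM in the microglia libraries, against 86.5, 91.7 and 98.7 CPM as the lowest, median and highest co-culture values. Gas6 was higher in every microglia library than in any co-culture library (log2 fold change 3.24 ± 0.03, adjusted p = 2.85e-37). Axl, a TAM receptor, was at 476, 485, 517 and 484 CPM in microglia and at a lowest, median and highest level of 26.2, 27.7 and 28.5 CPM in co-cultures. All 4 Axl values of the microglia lay above the co-culture range (log2 fold change 4.16 ± 0.03, adjusted p = 1.18e-39). Pros1, the other bridging ligand, and the TAM receptor gene Mertk had log2 fold changes of 5.39 and 4.87, while the TAM receptor gene Tyro3 (-3.61) and Cd24a, a neuronal surface protein (-4.64), were called lower in microglia.

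Upstream sequence was compared between these sets of genes, as a description of the letters that members which move together hold. RefSeq annotation on GRCm38.p6 gave the 250 bases before each annotated start of 27025 genes, 32851 windows in all, so that some genes have several, and a gene was counted when any of its windows held the letters. Each motif was searched on both strands and separately, so that matches may overlap. The PU.1 (ETS) letters GAGGAAGT stood in 2.79% of all genes with a window, in 52 of 473 genes (11.0%) with a log2 fold change of 5 or more, and in 13 of 814 genes (1.6%) with -5 or less. Of the 29 anchor genes with a window 4 held them (Cd37, Hpgds, Inpp5d and Vav1), and of the 17 homeostatic and 12 pan-neuronal genes none did. Of the 61 genes below the dilution with a window, 6 held the PU.1 letters (9.84%). These were Atp8b4, Mmp12, Mmp8, Rab32, Rasgrp3 and Spp1. The AP-1 letters TGAGTCA stood in 5.16% of all genes, in 41 of the 473 higher genes (8.67%), in 46 of the 814 lower ones (5.65%) and in 13 of the 61 genes below the dilution with a window (21.3%). Counted by window, the AP-1 letters stood in 4.46% of all windows and in 14 of 78 (17.9%) of the genes below the dilution. The 13 include the close copies Ctla2a and Ctla2b and the pair 9930111J21Rik1 and 9930111J21Rik2. The RE1 motif, the element bound by REST, a repressor of neuronal genes, stood in 10 of all genes, of which 5 (Fam163b, Fbll1, Hrh3, Osbp2 and Sptbn4) were among the 814 lower in microglia and none among the 473 higher. A match is a description of letters and not a bound site.

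Shown are the 250 bases before a RefSeq start of 2 anchor genes and 1 gene below the dilution that hold the PU.1 letters (capitals), Inpp5d (a lipid phosphatase, chr1:87620062-87620311), Vav1 (an exchange factor, chr17:57278850-57279099) and Spp1 (chr5:104434861-104435110), and of 2 genes below the dilution that hold the AP-1 letters (capitals), Mmp12 (chr9:7347124-7347373) and Itgax (the integrin CD11c, chr7:128129300-128129549), all on the plus strand and written 5′ to 3′.
Inpp5d: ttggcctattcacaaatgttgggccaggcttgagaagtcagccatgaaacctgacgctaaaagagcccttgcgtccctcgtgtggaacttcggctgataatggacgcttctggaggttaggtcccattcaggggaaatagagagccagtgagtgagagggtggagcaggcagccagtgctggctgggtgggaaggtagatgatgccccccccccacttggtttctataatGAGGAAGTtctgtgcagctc
Vav1: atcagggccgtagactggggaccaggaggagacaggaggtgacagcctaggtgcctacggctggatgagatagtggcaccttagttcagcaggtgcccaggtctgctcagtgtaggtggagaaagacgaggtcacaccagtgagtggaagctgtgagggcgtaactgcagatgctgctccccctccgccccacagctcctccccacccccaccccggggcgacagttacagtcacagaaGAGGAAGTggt
Spp1: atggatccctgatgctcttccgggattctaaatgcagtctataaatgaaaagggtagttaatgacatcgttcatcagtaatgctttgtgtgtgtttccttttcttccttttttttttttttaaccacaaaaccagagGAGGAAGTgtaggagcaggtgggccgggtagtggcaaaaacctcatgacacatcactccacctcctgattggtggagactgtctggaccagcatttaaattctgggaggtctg
Mmp12: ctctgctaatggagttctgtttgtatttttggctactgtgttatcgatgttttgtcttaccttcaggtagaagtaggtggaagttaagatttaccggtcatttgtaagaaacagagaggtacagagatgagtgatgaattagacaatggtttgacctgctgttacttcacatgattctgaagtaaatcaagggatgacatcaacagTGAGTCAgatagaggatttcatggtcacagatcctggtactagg
Itgax: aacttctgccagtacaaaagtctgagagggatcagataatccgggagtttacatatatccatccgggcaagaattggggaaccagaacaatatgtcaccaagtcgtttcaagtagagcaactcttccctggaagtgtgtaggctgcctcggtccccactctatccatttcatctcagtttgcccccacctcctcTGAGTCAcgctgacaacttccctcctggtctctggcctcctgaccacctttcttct
The Mmp12 window precedes a second RefSeq start, 2993 bases inside the gene as the tables place it, and the window before its first start did not hold the letters. The last capital lies 13 bases before the start in Inpp5d, 4 in Vav1, 106 in Spp1, 38 in Mmp12 and 50 in Itgax.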

How the data were processed

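Bulk poly-A RNA-seq (50 bp single reads) of the sc-control libraries was used, 4 of primary microglia and 8 of co-culture. Raw read counts per gene were deposited by the authors in a table for each experiment. Per the study's methods and the submitters' processing notes, reads were converted with bcl2fastq 2.20.2, checked with FastQC 0.11.5, aligned with STAR 2.5.2b to mm10 and counted with featureCounts 1.5.1. The annotation release and the strand setting are not given in the sources used here, so a gene and an overlapping gene on the opposite strand cannot be told apart.

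Groups came from the sample labels. The tables were joined on gene identifier, filtered with filterByExpr and tested with edgeR 4.0.16 (R 4.3.3) using TMM factors and the quasi-likelihood test, with Benjamini-Hochberg adjustment. A second fit scaled libraries by the mean log2 level (prior count 0.5) of the 40 anchor genes. Both fits were tested on simulated counts. For the second fit, all anchor genes were diluted by the same factor and only genes at 10 CPM or more in microglia were changed. The spread of the real anchor genes and rarer genes were therefore not covered by it. Exon lengths and overlaps came from the GENCODE annotation of GRCm38, and upstream bases from RefSeq on GRCm38.p6. Exact permutation tests used SciPy 1.17.1. No pair of libraries agreed within sampling noise (lowest chi-square per degree of freedom within a group 1.444). All libraries carry the same batch label. Of the libraries used, each experiment holds 1 group only, so experiment and group cannot be told apart. By the library names, sequencing lanes were 5 and 6 for microglia and 4, 5, 6 and 7 for co-cultures, and lane was not part of either fit.

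The genes named were the 15 highest microglial genes per kilobase (of those called higher and no more than 1 under the anchor median), the 15 highest co-culture genes (of those lower by 5 or more), the 12 furthest below the dilution at 10 CPM or more, for each list the 4 with the largest called difference and the 2 with the highest level, the ligands, receptors and cell type markers, and 8 genes the study names for microglia. Results for some of these genes are not reported here. Other list members were named after their values were seen. The members and lists were chosen with earlier results of these data known. Alternatives were other scalings, DESeq2 1.42.0, other filters and limits, another anchor, a replicate block and leaving out each library.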

Additional observations from a re-analysis of the deposited data

Results flagged for a closer look

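In 10 of 198 groups of values tested, the lowest or highest library stood further from its neighbour than Dixon's limit for the size of the group, and chance alone marks about 1 in 20 groups. Co-culture replicate 6 was the lowest library in 4 of them. It also stood apart across genes, with a chi-square per degree of freedom of 3.18 to 5.86 against the other co-cultures. Pairs without it ran from 1.44 to 2.52. Tubb3 was at 1456 CPM there and at 1571 to 1668 CPM in the other co-cultures, and Camkv at 457 CPM against 498 to 522 CPM. The pan-neuronal share of the same library was 97.1% of the co-culture mean, against 99.4% to 101.3% in the others, and its GABAergic share 95.5% against 99.2% to 102.5%.

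In microglia replicate 4, Tmem119 was at 19.7 CPM against 16.4 to 16.6 CPM in the other microglia libraries, H2-Aa was at 0.232 CPM against 0.0835 to 0.105 CPM, and the mean log2 level of the Toll-like receptor and inflammasome list was 6.11 against 6.15 to 6.16. In microglia replicate 2, Sla was at 114 CPM against 121 CPM in each of the others. Across genes its chi-square per degree of freedom against the other microglia libraries was 4.28 to 4.66, and 1.75 to 2.80 between those others. A single read each set Slc17a6 to 0.0335 CPM in microglia replicate 6 and Sst to 0.0525 CPM in microglia replicate 2, with 0 in the other microglia libraries.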

How the results depend on the processing

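The common dilution as the anchor median, 6.00 (log2) in the first fit, was 5.89 with upper-quartile factors, 5.74 on library size alone and 6.61 with the homeostatic list as anchor. It ran from 5.98 to 6.04 with 1 library left out. The genes higher in microglia numbered 1638 with at least 10 counts in every library, 4337 with a log2 fold limit of 1 and 1554 with a limit of 3, and 2505 to 2534 with 1 library left out. The lower genes numbered 6458 with no filter, 2183 with at least 10 counts in every library, and 4093 to 4228 with 1 library left out. The filters test different numbers of genes. The genes below the dilution numbered 45 with TMM factors and 1 shift by the anchor median, and 87 to 94 with 1 library left out, and the myeloid and immune list genes above it 63 to 65. After seeing the data, 3 further alternatives were added. The median of the anchor genes left 69 genes below, the anchor without Sla and Coro1a left 65, all among the 88, and TMM factors gave shares of 1.56% (microglial), 2.19% (pan-neuronal) and 12.4% (astrocyte). The microglial share was 1.26% with the homeostatic list as anchor. With 1 library left out the shares ran from 1.82% to 1.89%, 1.80% to 1.87% and 10.3% to 10.6%. The cause of these shifts was not tested.

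Replicate numbers 2, 4 and 6 occur in both groups, but deviations of same-numbered libraries correlated at 0.076, 0.116 and 0.15 over 11566 genes, so the numbers were not taken as pairs, although each microglia library correlated best with its own number. The replicate block on these 6 libraries gave 2533 higher and 3941 lower genes, 89 below the dilution (73 of them among the 88) and 61 list genes above it, and ended the call of Vsig4. Under the block the deviations of Ifi30 and Tmem119 turned to 0.00079 and 0.065.

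Signs of values near 0 turned in other cases. Tgfb2 (log2 fold change) turned to -0.018 with RLE factors, -0.023 with DESeq2, -0.097 with upper-quartile factors, -0.25 on library size alone, -0.035 with no filter and -0.13 with at least 10 counts in every library, and ran from -0.071 (without microglia replicate 6) to 0.074 with 1 library left out. H2-DMa turned to -0.024 with upper-quartile factors, -0.17 on library size alone and -0.055 with at least 10 counts, and Csf1 to -0.018 on library size alone. Cd47 ran from -0.026 to 0.0035 (without microglia replicate 4). The deviations of Fcer1g and Selenop turned to -0.26 and -0.24 with 1 shift, -0.14 and -0.12 with the anchor median and -0.18 and -0.16 without Sla and Coro1a, and that of Ctsz to -0.040 with 1 shift. Relative to TMM, the median of all genes shifted by -0.03 with RLE factors, -0.10 with upper-quartile factors and -0.25 on library size alone. Over all named genes and alternatives, 5140 values kept their direction and side of the limit, 23 changed sign, 21 fell short of the limit and 5 newly passed it. Genes with few co-culture reads are limited by depth, since 20 of the 88 genes below the dilution had 3 counts or fewer there.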
